A study of Homo sapiens with 8 samples.

Results

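The first days after withdrawal of DNMT1* were followed here in 3 of the 8 libraries of the time course, those of day 0, day 1 and day 2, with 1 library per day. The cells are HUES64, an established human embryonic stem cell line, and all 3 groups carry the same labelled genotype, a DNMT1 knockout. Their labels differ only in the days since withdrawal of DNMT1*: day 0, day 1 or day 2. The assay, RRBS (reduced representation bisulfite sequencing), samples DNA around MspI cut sites, where CpGs are frequent, and gave methylated and total reads at single CpGs of the hg19 genome. The members are the 2509193 autosomal CpGs with at least 10 reads in each of the 3 libraries, 81.5% of the 3077977 autosomal CpGs listed on any of these days.

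DNMT1 restores methylation on the newly made DNA strand after replication, where only the parental strand carries the mark. DNMT1* is an exogenous copy whose expression can be switched off, and it keeps alive a line that has lost its own enzyme. Human embryonic stem cells depend on DNMT1 for survival, and they also express DNMT3A and DNMT3B, which can methylate unmarked CpGs. Without maintenance, methylation is diluted as cells divide. A level is the mean over all cells of a library, so partial loss in every cell and full loss in some cells cannot be told apart.

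Over the passing CpGs the median depth was 50 reads on day 0, 24 on day 1 and 48 on day 2, and the day 1 library held 49.1% of the day 0 reads. With 1 library per day there is no test between days and no replicate check of any difference. The errors given are standard errors or Wilson 95% intervals that cover counting error only, because reads that carry no molecular identifier can be copies of 1 molecule. They also treat calls at different CpGs as independent. A read that covers several CpGs counts at each of them, so errors over sets of CpGs can be too small. Reads given for tiles and gene starts are such calls, summed over their CpGs. No label gives the dish, passage or clone.

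How much methylation left in each of the first 2 days was read first from the mean over all members. The mean level was 54.3% on day 0, 51.4% on day 1 and 45.5% on day 2. It fell by 2.85 points in the first day and fell by 5.97 points in the second, with counting errors of 0.0056 and 0.0059 points. Of the day 0 level, 94.8% was left on day 1 and 83.8% on day 2, and the second day left 88.4% of what it began with. The share lost was therefore 5.25% in the first step and 11.6% in the second, 2.21 times as much. Weighted by reads, where each library weights CpGs by its own depth, the 2 steps were nearer to each other, at -4.38 and -5.12 points.

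For the later steps, CpGs at 80% or more on day 0 by one part of that library's reads were followed as a share of reads, with the other part as the day 0 level. Day 3 kept 71.5% of the day 2 level, day 4 kept 70.8% of day 3, day 5 kept 82.8% of day 4, day 6 kept 70.4% of day 5 and day 7 kept 83.4% of day 6. On the same measure day 1 kept 94.9% of day 0 and day 2 kept 88.7% of day 1. From day 2 to day 6 the mean share kept was 73.7% per day. The libraries of days 3, 4 and 5 had a median of 4 reads per listed CpG. The first step lost the smallest share of the 7 and the step to day 2 the next smallest, so the name lag describes the first day best.

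The spread of levels shows where the first losses lay. To hold depth equal, 10 reads were drawn per CpG and library. CpGs with all 10 reads methylated made up 13.98% on day 0, 8.66% on day 1 and 2.97% on day 2. Those at 80% or more went from 46.3% to 39.8% and 25.4%, and the share between 20% and 80% rose from 21.05% to 27.1% and 40.4%. The share at 20% or less was nearly level, with 32.7%, 33.1% and 34.2%. In these 2 days the share at high levels fell and the share at intermediate levels rose, while the share in the low range changed little. These are net shares, and single CpGs were not followed between classes.

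**Figure D1:**
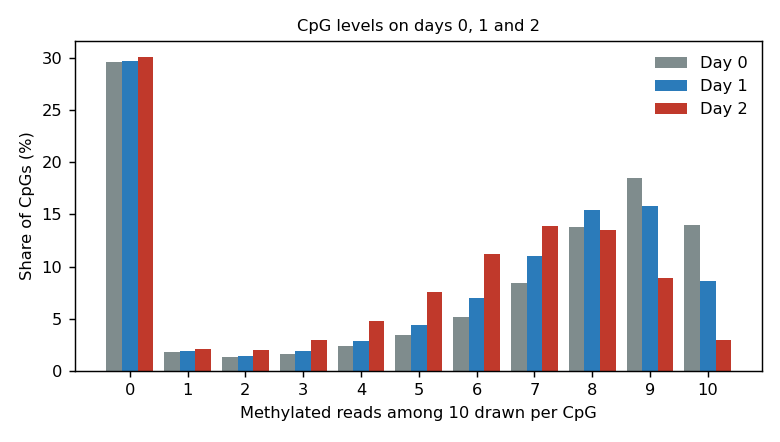
Share of the 2509193 autosomal CpGs (vertical axis, percent) by the number of methylated reads among 10 drawn (horizontal axis), with 1 bar for each of days 0, 1 and 2. CpGs with 10 of 10 methylated reads fell from 13.98% to 2.97%, while those with 0 of 10 stayed between 29.6% and 30.1%.

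Whether loss depended on the starting level was asked in 10-point classes of the day 0 level. Taken directly, CpGs that started at 90 to 100% appeared to lose most in the first day and those at 20 to 40% to gain. Day 1 stood at 91.1% of day 0 in the class at 90 to 100%, at 97.6% in the class at 50 to 60%, and at 103% in the classes at 20 to 30% and 30 to 40%. In these values the same day 0 reads choose the class and give its level, so counting error on day 0 enters both.

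The day 0 reads of each CpG were therefore split at random into 2 parts, one to choose the class and the other to give its level. With separate reads the classes lost nearly the same share in the first day. The class at 90 to 100% stood at 89.0% on day 0, 84.3% on day 1 and 75.3% on day 2, and kept 94.7% on day 1. The class at 50 to 60% stood at 58.5%, 55.2% and 48.3%, and kept 94.4% on day 1. Across the 9 classes from 10% upward, day 1 kept 92.5 to 94.9%, against 91.1 to 103% without the split. The apparent rise of low classes and the large first loss of the highest class were both absent with separate reads.

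In the second day the classes differed more, in one order. Day 2 kept 83.9% of the day 1 level in the class at 10 to 20%, 85.6% at 20 to 30%, 87.5% at 50 to 60%, 88.4% at 80 to 90% and 89.3% at 90 to 100%. Over both days the class at 90 to 100% kept 84.5% and the class at 50 to 60% kept 82.6%, a difference of 1.95 ± 0.064 points (counting SE). Without the split this difference had the opposite sign, -3.78 points. With separate reads the share kept on day 2 rose from class to class, from 77.6% at 10 to 20% to 84.5% at 90 to 100%. Without the split it had no single order: it was 81.7% at 10 to 20%, 88.9% at 30 to 40% and 81.5% at 90 to 100%.

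**Figure D2:**
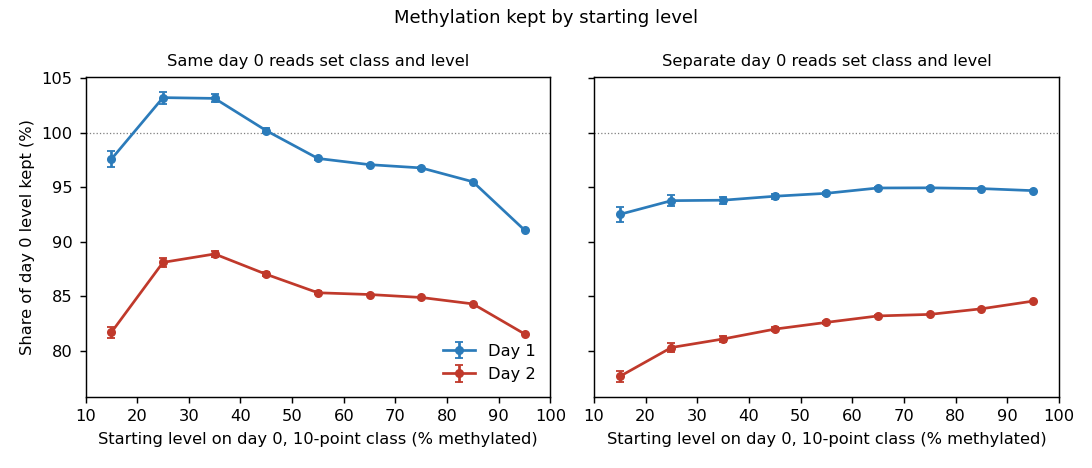
Share of the day 0 level kept on days 1 and 2 (vertical axis, percent) by starting level on day 0 in 10-point classes (horizontal axis, percent methylated). Bars are 95% counting intervals. On the left the same day 0 reads set class and level and day 1 spans 91.1 to 103%. On the right separate reads do, and day 1 spans 92.5 to 94.9%.

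The 1071584 CpGs at 80% or more by one part of the day 0 reads stood at 87.2% on day 0 by the other part, 82.7% on day 1 and 73.4% on day 2. They kept 94.8% ± 0.011 (counting SE) on day 1 and 84.2% ± 0.0095 on day 2. Without the split the 1091570 CpGs at 80% or more kept 93.6% and 83.1%. The 638364 CpGs between 20% and 80% kept 94.7% on day 1 and 82.9% on day 2, so both groups lost a like share at first. CpGs at 20% or less held 1.27% on day 0, 1.20% on day 1 and 1.009% on day 2. Of these, CpGs below 2% held 0.293%, 0.309% and 0.261%, which was taken as background and not subtracted. Without an unmethylated control, true low methylation and background cannot be told apart in these values. The values that follow for single CpGs, chromosomes and 1-Mb windows use separate day 0 reads for class and level. Those for 1-kb tiles and gene starts use all day 0 reads for both, unless another way is given.

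CpG density was read as the number of CpGs listed on any of the 3 days in fixed 1-kb tiles. Few CpGs in dense tiles were methylated at the start: 65.7% of passing CpGs were at 80% or more on day 0 where a tile listed 1 to 4 CpGs, 12.1% with 40 to 79 and 4.06% with 80 or more. Among CpGs at 80% or more, dense tiles lost less in both steps. Those in tiles with 1 to 4 listed CpGs went from 87.3% to 82.3% and 72.2%, and those in tiles with 40 or more from 87.9% to 84.5% and 76.8%. The starting levels were therefore close, and the levels on day 2 differed.

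The first step took 5.80% of the level with 1 to 4 listed CpGs, 5.45% with 5 to 9, 5.01% with 10 to 19, 4.45% with 20 to 39, 3.83% with 40 to 79 and 3.10% with 80 or more. The second step took 12.3%, 11.5%, 10.7%, 9.99%, 9.13% and 9.34% in the same order. The loss fell from class to class in the first step, and in the second up to 79 listed CpGs, while the last 2 classes of the second step differed by no more than their counting intervals. Between 40 or more and 1 to 4 listed CpGs, the share kept differed by 2.01 ± 0.053 points on day 1 and 4.76 ± 0.046 points on day 2. In 5-kb tiles, without the split, these differences were 0.935 and 2.39 points, against 1.97 and 4.68 points in 1-kb tiles. The limits of 40 or more and 1 to 4 listed CpGs were not scaled to tile size. In 5-kb tiles they therefore stand for lower densities, and the 2 sizes are not like for like.

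**Figure D3:**
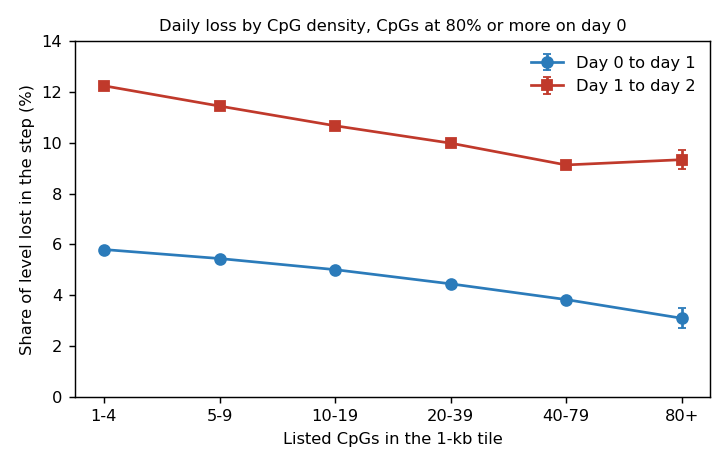
Share of the level lost in each daily step (vertical axis, percent, from 0) by listed CpGs per 1-kb tile (horizontal axis), for CpGs at 80% or more on day 0. Bars are 95% counting intervals. The first step takes 5.80% at the sparse end and 3.10% at the dense end, and the second step stays above it in every class.

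The ends of the density range kept their order at every starting level, while the classes between did not always. In all 9 classes from 10% upward, tiles listing at least 40 CpGs kept more than tiles listing 1 to 4, on day 1 and on day 2. At 40 to 50% the tiles with 5 to 9 listed CpGs kept 82.5% ± 0.16 on day 2, more than the 81.8% ± 0.20 of tiles with 10 to 19. At 50 to 60% the tiles with 5 to 9 kept 82.9% ± 0.10 and those with 40 or more 82.6% ± 0.32, with no clear order between them. The day 2 difference was smallest in the class at 50 to 60%, at 0.867 ± 0.34 points, and largest in the class at 90 to 100%, at 4.85 ± 0.063 points. On day 1 the difference was 2.11 ± 0.072 points in the class at 90 to 100% and 0.365 ± 0.93 points in the class at 20 to 30%. In the classes at 10 to 20%, 20 to 30%, 40 to 50% and 50 to 60% the day 1 difference was under 1.5 counting errors, so it was not detectable at this depth there.

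The distance to the nearest listed CpG moved with the loss in the same way. CpGs at 80% or more whose neighbour followed directly, at 2 bp, kept 95.7% on day 1 and 86.9% on day 2. With a neighbour at 10 to 19 bp they kept 94.7% and 83.9%, and with none nearer than 100 bp 93.7% and 81.9%. Within tiles of 1 to 4 listed CpGs, those with a neighbour under 10 bp kept 84.2% on day 2 and those with none under 50 bp kept 81.9%. Within tiles of 10 to 19 listed CpGs the same groups kept 85.9% and 81.6%. CpGs with no neighbour under 50 bp thus kept like shares in these 2 kinds of tile. In tiles of 40 or more listed CpGs, those with a neighbour under 10 bp kept 87.6% and those with one at 10 to 49 bp 86.8%, against 84.2% and 82.6% in tiles of 1 to 4. Density and spacing thus each went with the share kept at a like value of the other, apart from CpGs with no near neighbour. Only listed CpGs count as neighbours, and unlisted ones may lie nearer.

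Depth itself moved the share kept less than density did, up to 199 reads. CpGs at 80% or more kept 84.3% on day 2 with 10 to 19 reads on day 0, 84.4% with 20 to 49, 84.0% with 50 to 99 and 83.6% with 100 to 199. The 262 CpGs with 1000 reads or more kept 95.9% on day 1 and 87.1% on day 2.

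The autosomes were alike. Among CpGs at 80% or more, the share kept on day 1 ranged from 94.5% on chromosome 22 to 95.1% on chromosome 13, with a median of 94.8%. On day 2 it ranged from 83.5% on chromosome 22 to 84.9% on chromosome 4, with a median of 84.1%. The SD over the 22 autosomes was 0.153 points on day 1 and 0.377 on day 2, and the counting errors of single chromosomes reached 0.0852 and 0.0722 points. The second step took 2.10 to 2.19 times the share of the first. It took the larger share on 22 of 22 autosomes, with or without the split. Chromosomes are parts of the same 3 libraries and not replicates.

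Mean levels over all members differed more between chromosomes than the shares kept. On day 0 they ran from 50.9% on chromosome 17 to 59.8% on chromosome 21, and on day 2 from 42.4% to 50.1% on the same chromosomes. Dense tiles kept more than sparse tiles on 22 of 22 autosomes on both days, by 1.51 to 2.80 points on day 1 and 3.91 to 5.99 points on day 2. With the 5 density classes weighted alike on every chromosome, the range on day 2 was 83.5 to 84.9%. Chromosome 19, whose median CpG lay in a tile with 11 listed CpGs, moved from 84.1% to 83.7% by this weighting. The SD between chromosomes was 0.423 points with it and 0.377 without.

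**Figure D4:**
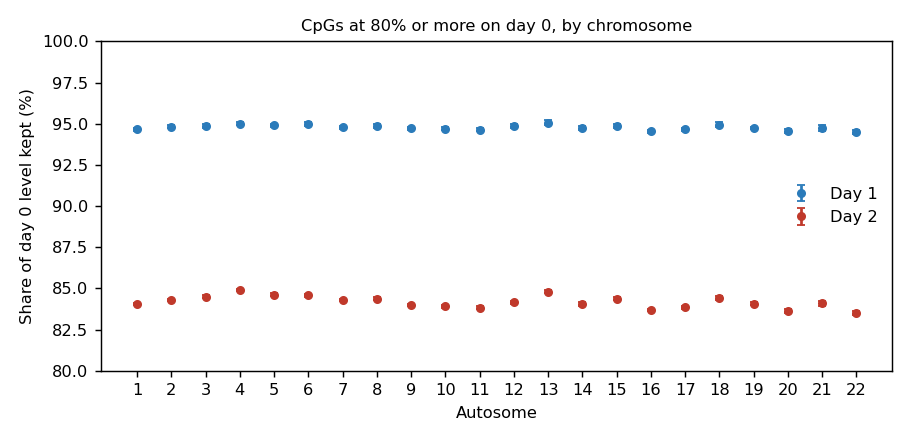
Share of the day 0 level kept on days 1 and 2 (vertical axis, percent, from 80 to 100) for CpGs at 80% or more on day 0, by autosome (horizontal axis). Bars are 95% counting intervals, mostly smaller than the points. Day 1 lies between 94.5 and 95.1% and day 2 between 83.5 and 84.9%.

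In 1-Mb windows the spread was wider. Of 1622 windows with at least 200 CpGs at 80% or more, the central 90% kept 93.5 to 96.2% on day 1 and 82.4 to 86.3% on day 2. The second step took the larger share in all 1622. The SD between windows on day 2 was 1.20 points, against a median counting error of 0.501 points. The 3 windows that kept most lay at chromosome 3: 1 to 1000000 with 90.02% ± 0.63, chromosome 4: 132000001 to 133000000 with 89.1% ± 0.25 and chromosome 4: 191000001 to 192000000 with 88.3% ± 0.30. Their CpGs lay in dense tiles, with medians of 36, 27 and 67 listed CpGs, and the first and last hold chromosome ends.

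The 3 windows that kept least were chromosome 1: 30000001 to 31000000 with 80.4% ± 0.66, chromosome 15: 70000001 to 71000000 with 80.9% ± 0.54 and chromosome 11: 69000001 to 70000000 with 81.0% ± 0.32. Their median CpG lay in a tile with 5 or 6 listed CpGs. The next windows outside these choices kept 88.2% and 81.1%.

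For regions, 156359 tiles of 1 kb with at least 5 passing CpGs were compared by the mean of their CpGs, here with all day 0 reads. A fall of 10 points or more was seen on day 1 in 15064 tiles, 9.63% of all, and on day 2 in 86456, 55.3% of all. Rises of that size numbered 842 on day 1, 0.539%, and 18 on day 2, 0.0115%. The count on day 1 changed with the setting: with at least 20 reads per CpG it was 6313 of 97819 tiles (6.45%), and with at least 10 passing CpGs 2273 of 62036 (3.66%). On day 2 these 2 settings gave 51.3% and 40.8%.

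The 57506 tiles at 80% or more on day 0 had medians of 85.8% on day 0, 81.5% on day 1 and 72.2% on day 2. By day 1, 86.7% of them were lower than on day 0, and by day 2 all but 92 (99.8%) were. In this class 13.3% fell by 10 points or more on day 1 and 80.1% on day 2. The changes by day 1 had an SD of 4.78 points between tiles, against an SD of 3.41 points from counting error alone. By day 2 the SD was again 4.78 points, against 2.93 from counting error alone. Variances add and SDs do not, so these values cannot be subtracted. The 28578 tiles at 20% or less had a median of 0.303% on day 0 and 0.240% on day 2, and 8 (0.028%) and 30 (0.105%) of them fell by 10 points or more.

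Single tiles show the range around this. Among 33922 tiles at 80% or more with at least 200 reads in each library, the median tile kept 94.97% on day 1 and 84.6% on day 2, and 335 kept 95% or more on day 2. The tile that kept most was chromosome 7: 5540001 to 5541000. Its 14 CpGs summed to 711 methylated of 788 read calls on day 0. On day 1 they gave 360 of 400, and on day 2 they gave 578 of 616. The mean of its CpGs was 89.9%, 90.2% and 93.7%, and in percent of reads the values were 90.2%, 90% and 93.8%, with Wilson 95% intervals of 87.96 to 92.1%, 86.7 to 92.6% and 91.6 to 95.5%. The 3 days overlapped in their intervals, so no loss was detectable there at this depth.

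The next highest tile was chromosome 8: 2020001 to 2021000. The other 3 began at 165636001 on chromosome 3, at 89963001 on chromosome 7 and at 61891001 on chromosome 20. Their CpGs stood at 80.7 to 88.9% on day 0 and at 83.9 to 90.5% on day 2. The next tile outside kept 102%, and the next above the lowest kept 60.9%.

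The tile that kept least was chromosome 16: 69986001 to 69987000, whose 7 CpGs stood at 80.8% on day 0, 72.8% on day 1 and 45.5% on day 2, so that most of its loss came in the second day. In percent of reads this tile read 70.7%, 61.2% and 47.99%, a lower start than by the mean of its CpGs. The chromosome 20: 46771001 to 46772000 tile took the other course, with 84.4%, 56.7% and 50.3% by CpGs and 80.6%, 55.6% and 46.2% of reads. The other 3 were chromosome 10: 97055001 to 97056000 with 86.4%, 66.6% and 51.4%, chromosome 3: 71478001 to 71479000 with 84.6%, 67.3% and 50.7%, and chromosome 15: 70707001 to 70708000 with 83.4%, 68.2% and 50.6%. These 10 were chosen by their share kept on day 2, so their distance from the median is a description. Genes at these tiles are not named, since an hg19 annotation was not used here.

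Gene starts could be found without coordinates, by the spacing of their CpGs. RefSeq sequences of 300 bases, from 250 before to 50 after a start (GRCh38.p14), were laid on the listed CpGs of their chromosome. A window was placed where at least 8 listed CpGs all fell on CpGs of the sequence and only 1 such place existed. Of 20062 windows tried, 12170 were placed. Along the chromosomes, 99.6% of neighbours stood in the table's order, and on a wrong chromosome 57 of the windows found a place. After windows on the wrong strand were dropped, 10298 windows of 8898 genes had at least 8 passing CpGs. Only CpG-rich starts can be placed in this way.

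Most of these starts had little to lose: 9742 windows (94.6%) stood at 20% or less on day 0, with a median of 0.046%. The 295 windows at 80% or more, of 280 genes, had medians of 88.2% on day 0, 84.4% on day 1 and 76.6% on day 2. On day 1, 231 of the 295 were lower than on day 0, and on day 2, 293. Their median share kept was 95.2% on day 1 and 86.6% on day 2, and 95.1% and 86.5% over 293 windows with separate day 0 reads. With all day 0 reads, a fall of 10 points or more was seen in 23 of them on day 1 (7.80%) and 194 on day 2 (65.8%), against 13.3% and 80.1% of tiles at 80% or more. Over all 10298 windows the shares were 0.515% and 2.87%. The tiles needed 5 passing CpGs and the windows 8, so their shares are not like for like. The 295 windows also lay in dense tiles, with a median of 25 listed CpGs. At like density, single CpGs at 80% or more inside the windows and elsewhere kept 86.3% ± 0.35 and 84.8% ± 0.019 on day 2 with 10 to 19 listed CpGs. With 20 to 39 they kept 86.4% ± 0.23 and 86.0% ± 0.027, and with 40 or more 88.2% ± 0.33 and 87.4% ± 0.043. The gene starts were thus higher by 1.5 points or less at each density, and under 2 counting errors apart with 20 to 39.

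Of the 192 such windows with a named gene and at least 200 reads in each library, those that kept most and least on day 2 are named here, by a rule set after the values were seen. The sequences of 3 of them are shown to let the measured CpGs be seen: the highest, the lowest, and OOEP, a gene of the egg. Each gives the 250 bases before the start, 5′ to 3′ on the gene's strand, from RefSeq (GRCh38.p14). Capitals mark the CpGs measured in all 3 libraries. By CpG spacing they lie in hg19 at chr3:146187349-146187598 on the minus strand, chr6:74079621-74079870 on the minus strand and chr1:2005260-2005509 on the plus strand.
PLSCR2: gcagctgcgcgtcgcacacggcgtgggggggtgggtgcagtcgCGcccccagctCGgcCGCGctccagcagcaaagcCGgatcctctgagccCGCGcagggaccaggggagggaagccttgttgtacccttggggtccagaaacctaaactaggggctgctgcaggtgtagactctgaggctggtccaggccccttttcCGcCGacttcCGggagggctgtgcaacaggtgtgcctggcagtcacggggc
OOEP: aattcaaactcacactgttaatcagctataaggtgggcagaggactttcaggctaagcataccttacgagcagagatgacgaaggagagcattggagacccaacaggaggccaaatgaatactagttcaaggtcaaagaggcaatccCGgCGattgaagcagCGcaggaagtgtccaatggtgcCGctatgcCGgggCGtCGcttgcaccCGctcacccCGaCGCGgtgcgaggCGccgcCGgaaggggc
PRKCZ: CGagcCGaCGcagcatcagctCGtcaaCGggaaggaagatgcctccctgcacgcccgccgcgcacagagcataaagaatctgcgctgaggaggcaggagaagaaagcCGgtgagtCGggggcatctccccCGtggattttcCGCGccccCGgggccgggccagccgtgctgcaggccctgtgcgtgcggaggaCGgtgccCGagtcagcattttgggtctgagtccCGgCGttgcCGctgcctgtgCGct

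PLSCR2, of the phospholipid scramblase family, stood at 82.6% on day 0, 82.5% on day 1 and 82.8% on day 2 over 10 CpGs. TDRD6, a tudor-domain protein of male germ cells, stood at 85.1%, 83.7% and 84.7% over 11 CpGs. OOEP, a component of the maternal complex under the egg's cortex, stood at 91.8%, 92.1% and 89.9% over 16 CpGs. In all 3 the day 2 level was within 2 points of day 0, while the median of the 192 windows kept 87.1%.

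GCSAML, named for its likeness to a germinal-centre signalling protein, stood at 87.9%, 92.1% and 86.8%. SPACA1, a membrane protein of the sperm acrosome, stood at 89.5%, 88.7% and 87.3%. The 5 highest kept 97.6 to 100.3%, with counting errors of 1.59 to 3.58 points, and the next window kept 97.6%.

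A start of PRKCZ, which encodes an atypical protein kinase C, stood lowest. This window read 80.8% on day 0, 68.3% on day 1 and 57.4% on day 2 over 18 CpGs, so that 71.1% ± 2.3 (counting SE) was kept. Another measured start of PRKCZ, at chromosome 1: 1981600 to 1981899, was unmethylated, with 0%, 0% and 0.054% over 23 CpGs. RTP5, of the receptor transporter family, read 86.5%, 77.8% and 64.9%. KIAA1671 read 86.7%, 79.7% and 65.9%. In these 3 methylated windows both days brought a loss.

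TTLL10-AS1, an antisense transcript, read 84.6%, 85.9% and 63.9%, and PROSER2-AS1, another, read 87.9%, 84.5% and 66.9%. Both windows thus lost mainly in the second day. A start of TTLL10 at chromosome 1: 1114811 to 1115110, whose window overlaps that of TTLL10-AS1, read 85.5%, 83.1% and 66.7%. The next lowest window kept 76.4%. Across the 192 windows the share kept on day 2 had an SD of 5.10 points, against a median counting error of 2.22 points.

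Genes of the germline, many of which embryonic stem cells keep silent under promoter methylation, were counted from a list of 47 written after the gene starts had been read. It holds TDRD6, OOEP and SPACA1, already named above among the windows that kept most. The comparison with other gene starts is therefore a description of this list and no independent support. Of these, 27 had a measured window, and 22 windows stood at 80% or more on day 0, 6 in between and 2 at 20% or less. The 22 had median levels of 88.8% on day 0, 88.8% on day 1 and 79.6% on day 2, and the other 273 gene starts at 80% or more 88.2%, 84.3% and 76.4%. The median share kept was 98.8% against 95.03% on day 1 and 88.9% against 86.4% on day 2. With separate day 0 reads for class and level it was 98.5% against 95.07% on day 1 and 87.8% against 86.4% on day 2, so the gap on day 2 was smaller. Of the 22, 13 were lower on day 1 than on day 0 and all 22 on day 2, and 15 kept more than the median of all 295 on day 2. A fall of 10 points or more was seen in 1 of the 22 on day 1 and in 11 on day 2, against 7.80% and 65.8% of all 295. The 2 groups overlapped over most of their range. Their tiles had a median of 27 and 25 listed CpGs. With under 20 listed CpGs 7 germline windows kept a median of 90% on day 2 and 84 others 85.5%. With 20 to 39, 11 germline windows kept 87.1% and 137 others 86.2%. With 40 or more, 4 germline windows kept 92.98% and 52 others 88.3%, and these 4 ran from 80.02% for PIWIL1 to 99.6% for TDRD6. The germline groups are small, so their medians are uncertain. A window can also cross the edge of the 1-kb tile that gives its density. DAZL, with 11 measured CpGs, fell in the class under 20 by a tile with 6 listed CpGs.

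The members of this list named next were chosen after their values were seen. Among the proteins of meiosis, SYCP3, of the synaptonemal complex, stood at 94.1% on day 0, 94.0% on day 1 and 90.8% on day 2. SYCP2, its partner in that complex, stood at 90%, 87.3% and 79.1%, and SYCE1, of the central element, at 89.7%, 83.9% and 74.2%. HORMAD2, which marks unsynapsed chromosome axes, stood at 88.9%, 80.7% and 74.0%. These 4 genes spanned shares kept on day 2 from 82.8% for SYCE1 to 96.5% for SYCP3.

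Other germline genes also differed among themselves. MOV10L1, a helicase of piRNA production, stood at 85.3%, 90.1% and 80.1%, and TDRD9, another helicase, at 88.1%, 88.9% and 81.1%. PIWIL1, an Argonaute protein that binds piRNAs, stood at 86.3%, 77.5% and 69.0%, and kept 80.02% ± 2.9 on day 2, the lowest of the 22. RNF17, a tudor-domain protein, stood at 88.05%, 90.6% and 84.8%. DAZL, an RNA-binding protein of germ cells, stood at 95.8%, 90.1% and 86.5%, the highest start of the 22. Of these 5, MOV10L1, TDRD9 and RNF17 read higher on day 1 than on day 0, each by less than 5 points.

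**Figure D5:**
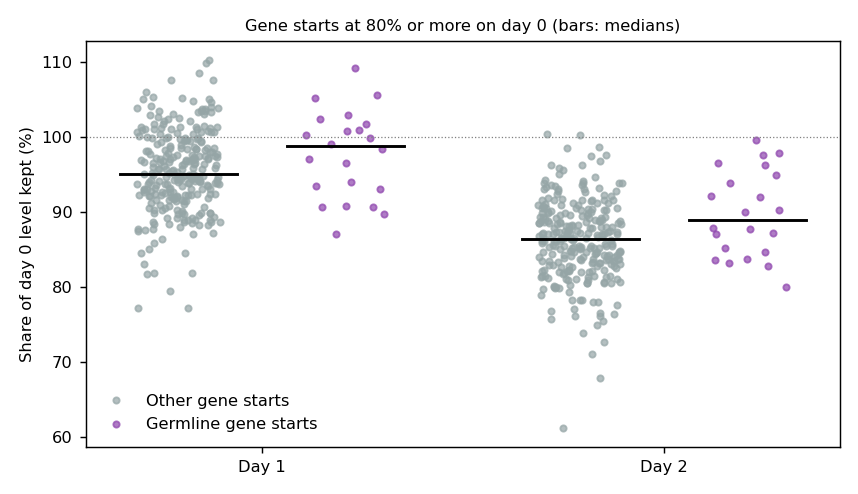
Share of the day 0 level kept on day 1 and day 2 (vertical axis, percent) at the 295 gene starts at 80% or more on day 0, for 22 germline gene starts and 273 others. Each point is 1 window and bars are medians, at 98.8% and 95.03% on day 1 and 88.9% and 86.4% on day 2. The germline list was written after the gene starts had been read.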

How the data were processed

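RRBS of 3 of 8 libraries was used for the comparisons, 1 per day. The libraries of days 3 to 7 were used only for the shares kept in the later daily steps. The deposited files give, per CpG, methylated and all reads, a score and a strand. The score that the authors deposited lay within 1 of 1000 times the methylated share in 100% of lines and was not used further. The build is hg19 per the submitters' processing notes; for aligner, caller and filters: not given in the sources used here. Libraries were joined by position, with starts counted from 1.

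Levels are methylated over all reads at autosomal CpGs with 10 or more reads on days 0, 1 and 2, each CpG weighted equally. The share kept is a ratio of mean levels. For classes set on day 0, that library's reads were split at random per CpG. The split was tested on simulated reads. Windows and tiles follow a rule of size: the highest and lowest shares kept, among tiles at 80% or more with 5 or more CpGs and 200 or more reads per library, and 1-Mb windows with 200 or more such CpGs. Read calls per library on days 0, 1 and 2 were 161534152, 77691782 and 156800949. Members and lists were chosen with earlier results of these data known. No test was run between days. Analyses used Python 3.11.15, numpy 2.4.6, pandas 2.3.3 and matplotlib 3.10.9.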

Additional observations from a re-analysis of the deposited data

Results flagged for a closer look

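The X chromosome lies outside the comparisons, and its signal is given as a value. Its 35941 CpGs at 80% or more on day 0 stood at 87.1% on day 0, 82.7% on day 1 and 73.7% on day 2. They kept 94.97% on day 1 and 84.7% on day 2, inside the range of the 22 autosomes on both days.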

How the results depend on the processing

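The exchanged and repeated splits and the alternatives for gene starts were chosen after seeing the data. Counting errors are so small that most alternatives moved a value past them. The exchanged and repeated splits, like the split itself, reversed the difference in share kept on day 2 between starts at 90 to 100% and 50 to 60%: -3.78 points became 1.95, 1.78 and 1.95. These 3 splits also gave 94.8% (each) on day 1 and 84.2% (each) on day 2 for CpGs at 80% or more, and the repeated split 4.77 points for density on day 2. No other direction changed, and the second step took the larger share on 22 of 22 autosomes under every alternative run for it.

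With at least 5 reads per CpG the first step was -2.90 points, the shares kept 93.2% and 82.8%, the difference by start -4.52 and by density 4.59 points on day 2. With at least 20 reads the steps were -2.75 and -5.90 points, the shares kept 94.0% and 83.4%, the difference by start -1.91 and by density 4.90 points, and 6313 and 50152 tiles fell by 10 points or more. Weighted by reads, the steps were -4.38 and -5.12 points, the shares kept 94.0% and 83.4%, the difference by start -2.21 and those by density 2.25 and 5.003 points. Without CpGs above the 99th percentile of reads the shares kept were 93.5% and 83.1%. With the mean of CpGs below 2% subtracted as background, the steps were -2.86 and -5.92 points and the shares kept 93.5% and 83.1%. From starts of 90% or more the shares kept were 91.1% and 81.5%, and the density differences 2.58 and 5.05 points. Density differences were 2.54 and 5.25 points in 500-bp tiles, 0.935 and 2.39 points in 5-kb tiles, and 4.80 points on day 2 with density from passing CpGs. With at least 10 CpGs per tile, 2273 and 25293 tiles fell by 10 points or more. The cause of these shifts was not tested. Median shares kept on day 2 were 86.6% for all gene starts at 80% or more and 88.9% for the germline list. With 12 or more measured CpGs they were 87.3% and 89.6%, and with starts of 70% or more 86.2% and 88.9%. With starts of 85% or more they were 87.05% and 87.9%, and with split day 0 reads 86.5% and 87.8%, so these medians stood closer. All stayed within 1 SD between windows, 5.48 and 5.76 points, which is a wide bound for a median. No paired analysis was possible because each day has 1 library.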

Other observations

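Gene starts that were partly methylated on day 0 were read in the same way as the methylated ones. The 261 windows between 20% and 80% had medians of 47.9% on day 0, 46.7% on day 1 and 39.9% on day 2, with median shares kept of 94.96% and 83.7%. On day 1, 178 of them were lower than on day 0, and on day 2, 238. Falls of 10 points or more numbered 30 on day 1 (11.5%) and 100 on day 2 (38.3%), against 10.6% and 57.5% of 1-kb tiles between 20% and 80% and 0.515% and 2.87% of all gene starts. The tiles needed 5 passing CpGs and the gene starts 8, in tiles with a median of 26 listed CpGs. These shares are therefore not like for like.

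Zinc finger genes formed a smaller group among the methylated starts. The 12 windows whose symbols begin with ZNF or ZFP had medians of 89.5%, 85.4% and 78.1%, and a median share kept of 85.4% on day 2, with a range of 82.6 to 93.9%. ZNF540 read 86.0%, 84.3% and 80.7%, the highest share kept of the 12, and ZNF667 read 88.3%, 84.7% and 72.9%, the lowest. ZFP42, a zinc finger gene known as a marker of pluripotent cells, read 92.9%, 88.1% and 77.6% at this start. This group was chosen by symbol after the gene starts had been read.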
